A study of Mus musculus with 6 samples.

Results

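The protocadherins are the largest family within the cadherin superfamily of calcium-dependent cell adhesion proteins, and their RNA was measured here in lungs of mouse fetuses of stage E18.5, near the end of gestation. Members were taken by name, as every probe set whose gene symbol in the platform annotation begins with Pcdh. This gave 68 of the 45037 probe sets on the array that are not controls, and they cover 49 gene symbols of 19324 in all. Of these probe sets 6 belong to the alpha cluster, 28 to the beta cluster, 1 to the gamma cluster and 33 to non-clustered genes. The 6 alpha probe sets carry up to 14 Pcdha symbols each and were kept as readings of the cluster, while the other 62 name 1 gene each, 35 genes in all.

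The samples were 3 lungs labelled Nfib f/f with Dermo1-Cre (Cre-labelled) and 3 labelled Nfib f/f without Cre (control-labelled), each from a separate animal of age E18.5 and each on 1 Affymetrix array. Every animal, the controls included, carried floxed alleles of Nfib, which encodes the transcription factor nuclear factor I B. Dermo1-Cre makes Cre recombinase from the Dermo1 (Twist2) locus, which is active in mesenchyme, and is used to delete floxed genes there while epithelium keeps them. No lung with Cre and without floxed Nfib was analysed here, so an effect of Cre itself cannot be told apart from that of the deletion. By its title the series asks what mesenchymal Nfib does for proliferating cells and for the epithelium as the lung matures. The brightest of 7 Nfib probe sets read higher in the lungs labelled as Cre carriers, at 11.16 to 11.49 log2 signal, against 10.17 to 10.32 in control-labelled lungs. Of the 6 tested ones 5 rose, by 2.05-fold to 2.20-fold (limma adjusted p at most 0.0497), and the other had a difference of -0.11 ± 0.13 (SE) with overlapping groups. Probe positions within Nfib are not given in the sources used here, so these probe sets do not check the deletion, and all directions below rest on the labels. Of the 4 nuclear factor I genes, each read from its brightest probe set, Nfib rose and the others did not pass (Nfia 0.36 ± 0.12 SE). All 9 lung epithelium and all 12 lung mesenchyme markers, among them Sftpc, Nkx2-1, Tbx4 and Foxf1, had a mean above the filter on low signal. All 13 cardiac muscle and all 12 endothelial markers did too, so passing the filter does not show lung identity. The arrays share a trimmed mean signal of 150.04 to 150.05, and their median log2 signal ran from 4.80 to 5.03.

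Protocadherins span the membrane once and carry a row of extracellular cadherin repeats. The alpha, beta and gamma genes stand in 3 tandem clusters on one chromosome. Each alpha or gamma transcript joins its own variable exon to constant exons that the whole cluster shares, whereas each beta gene is a single exon. Every variable exon has its own promoter, and in neurons the choice among them is made with the DNA-binding protein CTCF, the cohesin complex and DNA methylation, which gives single cells different surface identities. The non-clustered genes lie scattered over the genome and are grouped by their cytoplasmic tails into delta-1 and delta-2 types, with a few members outside both. The family is best known from the nervous system. In lung, PCDH1 is known from human airway epithelium and Pcdh12 from endothelium.

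Values are log2 signals as deposited, and a difference is the Cre-labelled mean minus the control-labelled mean on that log2 scale. A probe set was tested when its mean over the 6 arrays reached the 40th percentile of all probe sets, 4.0 log2 signal. The test was a limma fit over all 27022 such probe sets, with Benjamini-Hochberg adjustment over all of them and a threshold of 0.05. Of the 68 protocadherin probe sets 32 were tested and 36 lay below that level. In bulk lung RNA, fewer cells of a type and less RNA per cell cannot be told apart. The family was taken up with these differences already known, so its values and counts are given as a description and do not test the family.

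No protocadherin probe set passed the threshold in limma, in either direction (0 of 32). The share that passed among all tested probe sets was 3.56%, with 1.41% higher and 2.16% lower. The adjusted p-values of the 32 ran from 0.078 to 0.99. At an unadjusted p under 0.05 there were 7 higher and 1 lower members, against 19.5% of all tested probe sets, 9.5% higher and 9.97% lower. At an adjusted p under 0.10 there were 3 members, Pcdhb10, Pcdhb9 and a Pcdh9 probe set, all higher, against 7.85% of all tested probe sets, 3.45% higher and 4.4% lower. The standard errors of the 32 differences ran from 0.10 to 0.44, and for 19 of them the 95% interval lay within a 2-fold change either way. For the other 13 a change of 2-fold or more lay inside the interval, so the missing calls do not show that these levels were alike.

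**Figure D1:**
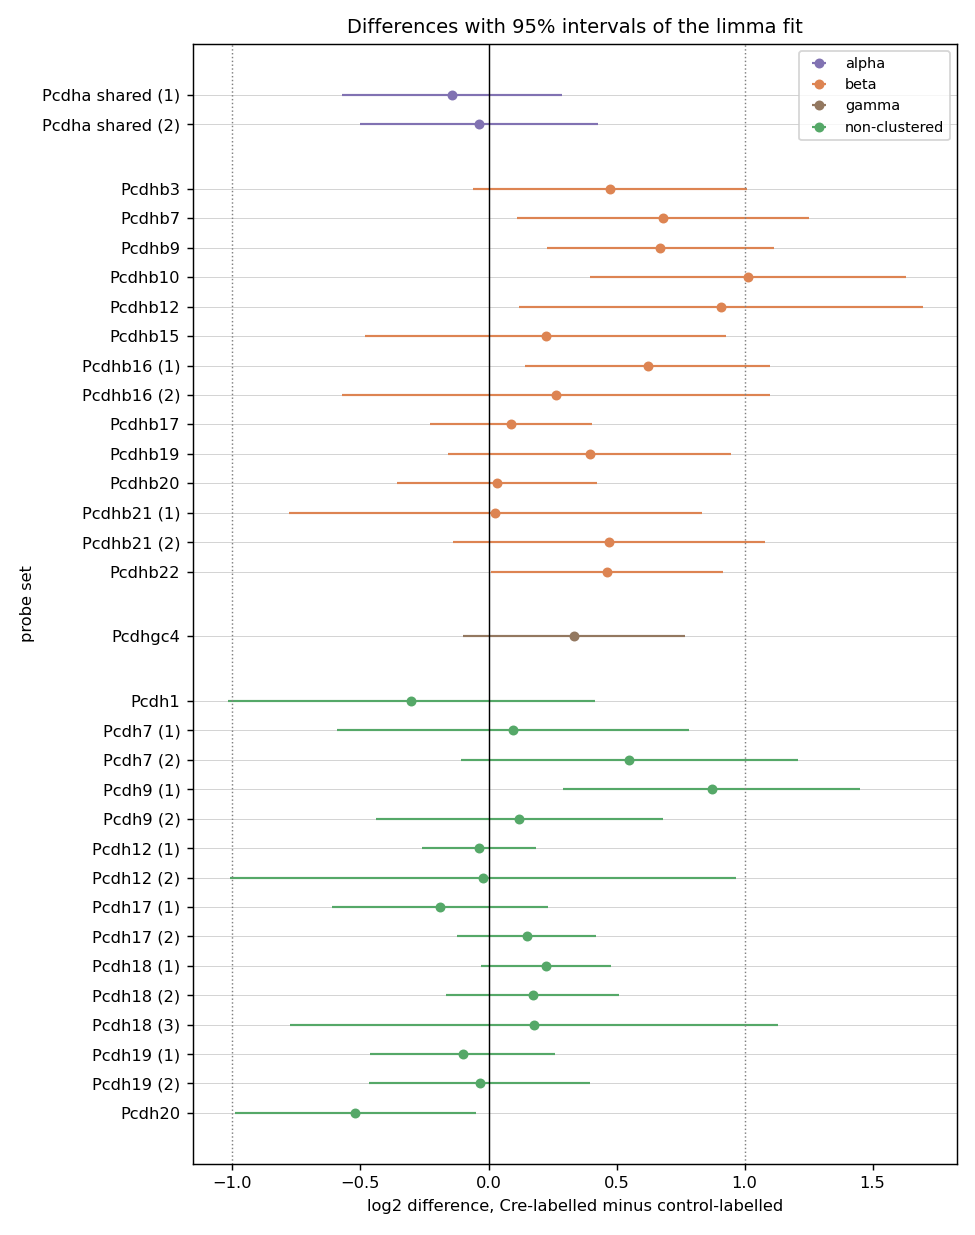
Log2 difference (x axis, Cre-labelled minus control-labelled, n = 3 arrays each) of the 32 tested protocadherin probe sets, with 95% intervals of the limma fit as bars. Numbers in brackets order the probe sets of a gene from the highest to the lowest mean signal, and dotted lines mark 2-fold. All 14 beta points lie right of 0, and 24 of the 32 intervals span 0. Pcdhb10 and Pcdhb12 were tested only because the Cre-labelled lungs were higher.

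The groups of the family differed in their pattern, a difference that was not tested. All 14 tested beta probe sets had a positive difference, with a median of 0.47 and a range of 0.03 to 1.01, where 50.1% of all tested probe sets were positive and their median was 0.00. Of the 14, Pcdhb10 and Pcdhb12 passed the filter only through the Cre-labelled lungs, so their positive sign was fixed by the filter. Among the 13530 probe sets whose mean signal lay within the range of the tested beta probe sets, 48.4% were positive, with a median of -0.01. With the 14 beta probe sets below the filter level added, 22 of 28 were positive and the median was 0.43. The 15 tested non-clustered probe sets were split, 8 positive and 7 negative, with a median of 0.10 and a range of -0.52 to 0.87. The 2 tested alpha probe sets were both slightly negative and the gamma probe set was positive, which are too few to describe those clusters. Members of 1 family share sequence and cells, so they are not replicates of one another.

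**Figure D2:**
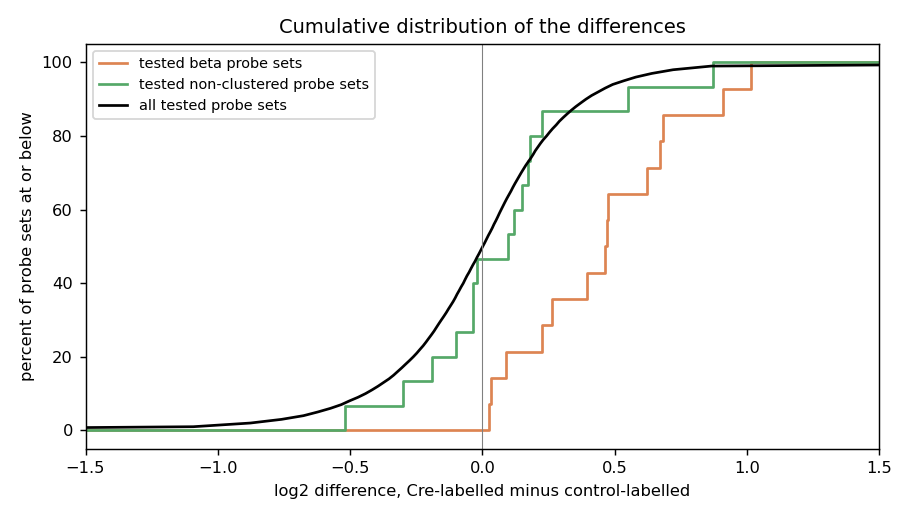
Percent of tested probe sets (y axis) at or below each log2 difference (x axis, Cre-labelled minus control-labelled) for the 14 tested beta and 15 tested non-clustered protocadherin probe sets and for all 27022 tested probe sets. The beta steps start at 0.03 and cross 50% near their median of 0.47, while the non-clustered steps stay close to the curve of all probe sets.

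Beta genes, which encode adhesion proteins with short cytoplasmic ends and no shared constant exon, were each measured by 1 to 3 probe sets. All 22 beta genes named in the annotation had a probe set and 12 had a tested one. Pcdhb10 read 4.69, 5.08 and 4.98 in Cre-labelled lungs, against 3.61, 4.25 and 3.84 in control-labelled lungs. Its difference of 1.01 ± 0.27 (SE, 95% interval 0.40 to 1.63), 2.02-fold, was the largest among the 32 tested members. Pcdhb9 read 6.65, 6.47 and 7.13 in Cre-labelled lungs, against 5.97, 6.23 and 6.02 in control-labelled lungs, a difference of 0.67 ± 0.20 (SE). For both genes every Cre-labelled array lay above every control-labelled array.

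Pcdhb12 and Pcdhb7 had differences of similar size. Pcdhb12 read 5.04, 4.06 and 4.29 in Cre-labelled lungs, against 3.97, 3.45 and 3.25 in control-labelled lungs, a difference of 0.91 ± 0.35 (SE). Pcdhb7 read 6.34, 6.03 and 6.13 in Cre-labelled lungs, against 5.06, 5.38 and 6.02 in control-labelled lungs, a difference of 0.68 ± 0.25 (SE). Neither gene's groups overlapped, although for Pcdhb7 the third control-labelled array came within 0.01 of the lowest Cre-labelled one. The control-labelled means of Pcdhb10 and Pcdhb12, 3.90 and 3.56, lay below the filter level, so these probe sets were tested only because the Cre-labelled lungs were higher. The same held for 1 Pcdh7 probe set and for no other tested member.

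Pcdhb16 had 3 probe sets, of which the one with the highest mean signal read 6.40, 6.04 and 6.66 in Cre-labelled lungs, against 5.48, 5.82 and 5.93 in control-labelled lungs. Its difference was 0.62 ± 0.21 (SE), and the other tested Pcdhb16 probe set had one of 0.26 ± 0.37 (SE) with overlapping groups. Pcdhb3 read 5.13, 5.09 and 5.33 in Cre-labelled lungs, against 4.89, 4.88 and 4.37 in control-labelled lungs (difference 0.47 ± 0.24 SE). Pcdhb22, the last gene of the cluster, read 6.18, 5.67 and 5.97 in Cre-labelled lungs, against 5.54, 5.32 and 5.57 in control-labelled lungs (difference 0.46 ± 0.20 SE). With these, 7 of the 14 tested beta probe sets had groups that did not overlap, all 7 higher, where 26.1% of all tested probe sets had no overlap, 13.3% higher and 12.8% lower. Pcdhb10 and Pcdhb12, which passed the filter only through the Cre-labelled lungs, are among the 7.

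The remaining tested beta probe sets had groups that overlapped. Pcdhb17 read 6.88, 6.84 and 6.79 in Cre-labelled lungs, against 6.91, 6.57 and 6.76 in control-labelled lungs, and its interval of -0.23 to 0.40 was the narrowest among the beta members. Pcdhb20 likewise read 6.23, 6.46 and 6.02 against 6.12, 6.16 and 6.34 in Cre-labelled and control-labelled lungs (interval -0.36 to 0.42). Pcdhb19 had a difference of 0.39 ± 0.25 (SE) and Pcdhb15 one of 0.22 ± 0.31 (SE). The 2 Pcdhb21 probe sets gave 0.03 ± 0.36 and 0.47 ± 0.27 (SE). The beta genes thus ran from differences near 0 to about 2-fold, and intervals of neighbours in that order overlapped widely.

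Along the cluster, the genes whose brightest probe set was higher without overlap were Pcdhb3, Pcdhb7, Pcdhb9, Pcdhb10, Pcdhb12, Pcdhb16 and Pcdhb22. Pcdhb1, Pcdhb2, Pcdhb4, Pcdhb5 and Pcdhb6 at the start of the cluster lay below the filter level, as did Pcdhb8, Pcdhb11, Pcdhb13, Pcdhb14 and Pcdhb18. From Pcdhb17 to Pcdhb21, the brightest probe set of each tested gene had a difference of at most 0.39, but the other tested Pcdhb21 probe set had 0.47 ± 0.27 (SE). All 6 negative beta differences fell on probe sets below the filter level. The nearest to it was Pcdhb5, which read 3.42, 3.62 and 4.27 in Cre-labelled lungs, against 4.25, 3.73 and 4.20 in control-labelled lungs, a difference of -0.29. Beta genes are close copies of one another and probe sequences were not used here, so signal shared among them cannot be told apart from signal of a single gene. Of the 28 beta probe sets 26 have names that end in _at, Affymetrix's mark for a probe set designed for 1 transcript, and the tested Pcdhb15 probe set is marked _s_at, as shared by several.

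**Figure D3:**
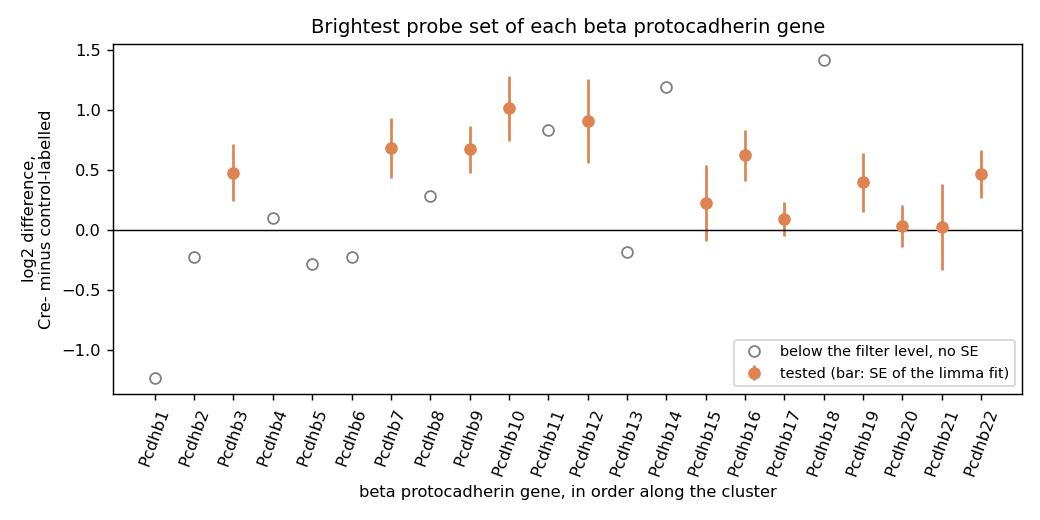
Log2 difference (y axis, Cre-labelled minus control-labelled, n = 3 arrays each) of the brightest probe set of each of the 22 beta genes, in their order along the cluster (x axis). Filled points are tested probe sets with the SE of the limma fit as bars, and open points lie below the filter level, where values are noisy. All 12 filled points lie above 0, between 0.03 and 1.01. Pcdhb10 and Pcdhb12 were tested only because the Cre-labelled lungs were higher.

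Read by array, the same beta values differed in degree among the 3 Cre-labelled lungs. They include Pcdhb10 and Pcdhb12, which passed the filter only through these lungs, so the array counts and medians are no further support. On Cre-labelled replicates 1, 2 and 3, 13, 10 and 11 of the 14 tested beta probe sets lay above their own mean over the 6 arrays. On control-labelled replicates 1, 2 and 3 this was true of 2, 1 and 5. The median deviation of the 14 from their own means was 0.26, 0.07 and 0.31 on the Cre-labelled arrays and -0.23, -0.20 and -0.13 on the control-labelled arrays. No array of one group reached into the other, and Cre-labelled replicate 2 stood nearest to the controls. For the 15 non-clustered probe sets the same medians were 0.10, -0.10 and -0.01 on the Cre-labelled arrays and 0.04, -0.12 and 0.07 on the control-labelled arrays, with no separation of the groups.

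The size of the beta differences depends on how low signal is treated. With 64 added to each signal on the linear scale before the logarithm, the beta median was 0.15 in place of 0.47, and the difference of Pcdhb10 was 0.25 in place of 1.01. All 14 differences stayed positive with this offset. An offset keeps the order of the arrays, so it could not reverse the probe sets whose groups do not overlap.

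**Figure D4:**
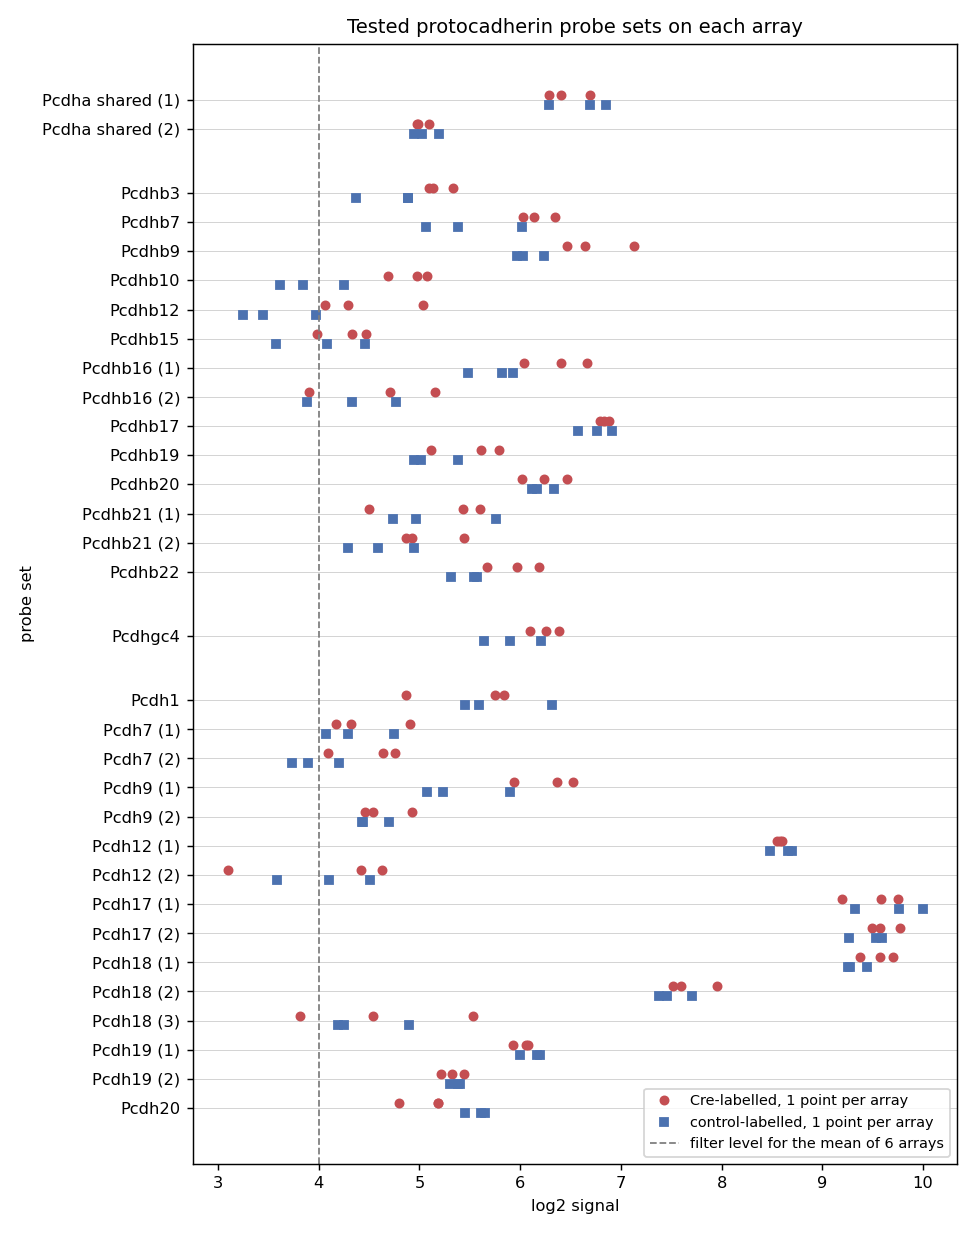
Log2 signal (x axis) of the 32 tested protocadherin probe sets on each of the 3 Cre-labelled arrays (circles) and 3 control-labelled arrays (squares), grouped as alpha, beta, gamma and non-clustered. The dashed line is the filter level of 4.0, and numbers in brackets order the probe sets of a gene by mean signal. Pcdhb9, Pcdhb10 and Pcdhb12 show separate groups, while the groups of Pcdh12, Pcdh17, Pcdh18 and Pcdh19 overlap.

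Alpha transcripts share their constant exons, and 3 of the 6 alpha probe sets list all 14 Pcdha symbols. The alpha probe set with the highest mean signal read 6.29, 6.41 and 6.70 in Cre-labelled lungs, against 6.28, 6.85 and 6.69 in control-labelled lungs. Its difference was -0.14 ± 0.19 (SE, 95% interval -0.57 to 0.29). The other tested one read 5.10, 4.97 and 4.98 against 5.03, 5.19 and 4.94 in Cre-labelled and control-labelled lungs (difference -0.04 ± 0.21 SE). For these 2 readings of the shared part of the cluster the groups overlapped and a change of 2-fold lay outside the intervals. The other 4 alpha probe sets lay below the filter level, with differences from -0.65 to 0.98.

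The gamma cluster was represented by Pcdhgc4, one of its C-type genes, whose proteins are needed for neuronal survival in mouse. It read 6.26, 6.39 and 6.10 in Cre-labelled lungs, against 6.20, 5.64 and 5.89 in control-labelled lungs. The difference was 0.33 ± 0.19 (SE, 95% interval -0.10 to 0.77), and the groups overlapped through control-labelled replicate 1.

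Promoters are shown for 4 non-clustered genes, the ones with the largest difference in each direction among tested non-clustered probe sets (Pcdh9 and Pcdh20) and the ones measured with 2 or more probe sets of high signal and little difference (Pcdh17 and Pcdh18), because nuclear factor I B binds DNA at sites built from the half-site TTGGC, which can be searched for in these windows. Each window holds 250 bases before and 50 after the RefSeq start on the gene's strand, from GRCm38.p6, and capitals mark TTGGC or its reverse complement GCCAA. The Pcdh9 window is chr14:93890630-93890929, on the minus strand, Pcdh20 is at chr14:88471347-88471646, on the minus strand, Pcdh17 at chr14:84443313-84443612, on the plus strand, and Pcdh18 at chr3:49757267-49757566, on the minus strand.
Pcdh9: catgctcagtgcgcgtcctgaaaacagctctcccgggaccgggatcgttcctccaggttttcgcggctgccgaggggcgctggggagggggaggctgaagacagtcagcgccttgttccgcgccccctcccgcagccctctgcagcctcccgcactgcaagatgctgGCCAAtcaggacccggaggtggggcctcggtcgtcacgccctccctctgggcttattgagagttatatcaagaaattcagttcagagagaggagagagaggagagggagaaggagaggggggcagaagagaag
Pcdh20: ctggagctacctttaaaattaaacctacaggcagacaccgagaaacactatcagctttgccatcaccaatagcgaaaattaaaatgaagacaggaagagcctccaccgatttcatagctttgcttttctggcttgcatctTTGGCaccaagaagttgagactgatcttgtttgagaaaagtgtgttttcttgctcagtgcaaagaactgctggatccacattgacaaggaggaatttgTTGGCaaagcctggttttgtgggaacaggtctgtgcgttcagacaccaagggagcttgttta
Pcdh17: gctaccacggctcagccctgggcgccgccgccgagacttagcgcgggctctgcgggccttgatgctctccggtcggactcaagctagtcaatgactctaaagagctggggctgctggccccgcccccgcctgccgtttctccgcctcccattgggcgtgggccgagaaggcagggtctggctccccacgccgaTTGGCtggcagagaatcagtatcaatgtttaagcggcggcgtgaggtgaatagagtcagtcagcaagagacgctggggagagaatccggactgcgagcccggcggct
Pcdh18: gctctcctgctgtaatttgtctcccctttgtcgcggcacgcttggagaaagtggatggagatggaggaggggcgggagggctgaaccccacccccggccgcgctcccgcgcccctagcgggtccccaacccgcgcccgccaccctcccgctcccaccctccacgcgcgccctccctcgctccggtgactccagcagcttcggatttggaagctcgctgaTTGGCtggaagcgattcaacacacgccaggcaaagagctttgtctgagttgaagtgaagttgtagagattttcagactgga

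A window was found for 9 of the 35 genes with a probe set of their own, all of them non-clustered. The half-site TTGGC, searched on both strands, was in 7 of these 9, and in 46.7% of all 32851 windows of the same length. Pcdh9, Pcdh17 and Pcdh18 held 1 half-site each, at 83, 57 and 31 bases before the start, and Pcdh20 held 2, at 110 and 12 bases. Those of Pcdh9, Pcdh17 and Pcdh18 overlap CCAAT, a box read by other factors and present in 37.4% of all windows, and those of Pcdh20 do not. The full nuclear factor I palindrome, TTGGC and GCCAA with any 5 bases between them, was in none of the 9 and in 12 of all windows. A core of the CTCF site (CC, any 3 bases, AGG, any base, GGC) was in the Pcdh15 window alone among the 9 and in 3.43% of all windows. The element in clustered protocadherin promoters has the core CGCT. CCGCT, this core with a flanking base, was in 6 of the 9 and in 35.6% of all windows. A match of letters is not a bound site.

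Among the tested delta-1 probe sets the largest difference was in Pcdh9. Its probe set with the highest mean signal read 6.52, 5.94 and 6.36 in Cre-labelled lungs, against 5.90, 5.24 and 5.07 in control-labelled lungs, and the groups did not overlap. The difference was 0.87 ± 0.26 (SE, 95% interval 0.29 to 1.45), 1.83-fold. A second tested Pcdh9 probe set read 4.54, 4.46 and 4.93 in Cre-labelled lungs, against 4.44, 4.42 and 4.70 in control-labelled lungs. Its difference was 0.12 ± 0.25 (SE). The last of the 3 Pcdh9 probe sets, below the filter level, had a difference of -0.56, so the 3 disagreed.

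The other delta-1 genes had overlapping groups. Pcdh7 had 2 tested probe sets with differences of 0.10 ± 0.31 and 0.55 ± 0.29 (SE), and 1 more below the filter level at 1.46. The brightest read 4.17, 4.32 and 4.91 in Cre-labelled lungs, against 4.75, 4.29 and 4.07 in control-labelled lungs. Pcdh1 read 5.75, 5.84 and 4.86 in Cre-labelled lungs, against 5.60, 6.31 and 5.45 in control-labelled lungs, a difference of -0.30 ± 0.32 (SE) with an interval of -1.02 to 0.41. Cre-labelled replicate 3 was the lowest of the 6 arrays for Pcdh1. Both Pcdh11x probe sets lay below the filter level, and the brighter read 3.23, 2.29 and 2.57 in Cre-labelled lungs, against -1.78, 2.89 and 1.73 in control-labelled lungs.

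The delta-2 genes, several of which join actin regulation through the WAVE complex, included Pcdh17 and Pcdh18, each with 2 probe sets that gave narrow intervals. Pcdh18 had 3 tested probe sets with differences of 0.22 ± 0.11, 0.17 ± 0.15 and 0.18 ± 0.42 (SE). The one with the highest mean signal read 9.37, 9.70 and 9.57 in Cre-labelled lungs, against 9.28, 9.25 and 9.44 in control-labelled lungs, with an interval of -0.03 to 0.48. Its groups overlapped through a single pair of arrays. Pcdh17 had 2 tested probe sets of opposite sign, at -0.19 ± 0.19 and 0.15 ± 0.12 (SE). The first read 9.75, 9.19 and 9.58 in Cre-labelled lungs, against 9.76, 9.33 and 9.997 in control-labelled lungs, and the second read 9.49, 9.58 and 9.77 in Cre-labelled lungs, against 9.59, 9.54 and 9.27 in control-labelled lungs. A 2-fold change of Pcdh17 lay outside both intervals, and likewise for the 2 brighter Pcdh18 probe sets.

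Pcdh19, the X-linked gene mutated in a human epilepsy of girls, read 6.08, 5.93 and 6.06 in Cre-labelled lungs, against 6.20, 6.0 and 6.17 in control-labelled lungs. The difference was -0.10 ± 0.16 (SE), and a second tested probe set had one of -0.04 ± 0.19 (SE). All 6 Pcdh10 and both Pcdh8 probe sets lay below the filter level, with differences of both signs between -0.94 and 1.05. The brightest Pcdh10 probe set read 2.24, 2.73 and 2.32 in Cre-labelled lungs, against 2.01, 1.86 and 4.21 in control-labelled lungs. The brighter Pcdh8 probe set read 2.81, 1.28 and 1.11 in Cre-labelled lungs, against 2.44, 2.27 and 3.30 in control-labelled lungs.

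Outside both delta types, Pcdh20 was the one protocadherin gene lower without overlap. Its tested probe set read 5.18, 4.80 and 5.18 in Cre-labelled lungs, against 5.61, 5.45 and 5.65 in control-labelled lungs, a difference of -0.52 ± 0.21 (SE, 95% interval -0.99 to -0.05), 1.43-fold. The second Pcdh20 probe set, below the filter level, read 3.49, 3.40 and 2.33 in Cre-labelled lungs, against 4.02, 3.93 and 4.21 in control-labelled lungs. The 2 probe sets had the same sign and neither had overlapping groups. Of the 32 tested members 1 was lower without overlap, where 12.8% of all tested probe sets were. The second probe set is not read as a result. Pcdh12, also called VE-cadherin-2, is an endothelial protocadherin. Its probe set with the highest mean signal read 8.55, 8.60 and 8.58 in Cre-labelled lungs, against 8.48, 8.70 and 8.66 in control-labelled lungs. The difference of -0.04 ± 0.10 (SE, 95% interval -0.26 to 0.18) had the smallest standard error among the 32 tested members. Another tested Pcdh12 probe set had a difference of -0.02 ± 0.44 (SE, 95% interval -1.01 to 0.97). The last Pcdh12 probe set, below the filter level, had one of -1.12. Pcdh15, a component of the tip links of inner ear hair cells, had 3 probe sets, all below the filter level. The brightest read 3.05, 2.66 and 3.43 in Cre-labelled lungs, against 2.32, 0.73 and 3.26 in control-labelled lungs.

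Members below the filter level varied too much to be read gene by gene. Their 36 differences ran from -1.23 to 1.75, 21 of them positive, and the SD over 3 arrays reached 3.08. Of the 36, 17 had a value below 0 on at least 1 array. One was higher without overlap, a second Pcdhb15 probe set that read 2.39, 2.90 and 1.89 in Cre-labelled lungs, against 0.74, 1.79 and -0.33 in control-labelled lungs. One was lower without overlap, the second Pcdh20 probe set. The share without overlap among all probe sets below the filter level was not computed, so neither is read as a result. Of the 16 genes with several probe sets, 8 had all of them on the same side of 0. These were Pcdh7, Pcdh18, Pcdhb14, Pcdhb15, Pcdhb16 and Pcdhb21 on the positive side and Pcdh12 and Pcdh20 on the negative side. Both Pcdhb14 probe sets lay below the filter level. The share over all genes with several probe sets was not computed.

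Genes that act on the choice of clustered promoters were read from a list of 13 cohesin and CTCF genes. One rose, the cohesin subunit gene Rad21 (difference 0.77 ± 0.17 SE, limma adjusted p = 0.047), none fell and 12 did not pass. The list median was 0.12 and 11 of 13 differences were positive. Esco2, which acetylates cohesin in S phase, had a difference of 0.88 ± 0.27 (SE, adjusted p = 0.11). Of 8 genes of DNA methylation and promoter silencing, Uhrf1, which guides maintenance methylation to newly copied DNA, rose (0.82 ± 0.15 SE, adjusted p = 0.021) and the other 7 did not pass. The maintenance methyltransferase gene Dnmt1 had a difference of 0.47 ± 0.11 (SE, adjusted p = 0.055), and the list median was 0.33. Esco2, Uhrf1 and Dnmt1 are known to be expressed most in S phase, and 12 of 19 tested cell cycle genes rose in the same comparison, with a median of 0.55 and none that fell. The 12 were Ect2, Mcm2, Mcm3, Mcm4, Mcm5, Mcm7, Top2a, Mki67, Bub1, Bub1b, Ccna2 and Aurka, of which Ect2 (0.65 ± 0.10 SE) and Mcm4 (0.67 ± 0.11 SE) had the smallest p. The summed linear signal of the cell cycle list was 21467 to 22557 on the Cre-labelled arrays and 14859 to 16782 on the control-labelled arrays. Its part in the beta differences was not tested.

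Among genes that work downstream of protocadherins, 11 of the 15 listed for the WAVE complex and linked kinases were tested. Wasf1, which encodes the WAVE1 protein, rose (0.93 ± 0.17 SE, limma adjusted p = 0.025), none fell and 10 did not pass. Cyfip2, another subunit gene, had a difference of -0.75 ± 0.19 (SE, adjusted p = 0.064), and the list median was -0.07. Other cadherins did not pass either. None of 12 tested classical and related cadherin genes passed, with a median of 0.06 and with Cdh2 (0.47 ± 0.15 SE) and Cdh3 (-0.92 ± 0.41 SE) as the members of smallest unadjusted p. None of 12 tested giant, seven-pass, calsyntenin and other cadherin-related genes passed (median 0.03), where Fat4 had 0.63 ± 0.22 and Cdhr3 -0.60 ± 0.21 (SE). The 2 tested desmosomal cadherin genes, Dsg2 (0.20 ± 0.10 SE) and Dsc2 (0.37 ± 0.32 SE), and all 8 tested catenin genes, with a median of -0.13 and with Ctnnd2 (0.41 ± 0.16 SE) and Pkp4 (0.23 ± 0.10 SE) first, did not pass.

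Protocadherins are abundant in neurons, so markers of nerve in the lung were read beside them. Of 18 neuron and neuroendocrine markers 4 were tested and 1 fell, Stmn2 (-0.62 ± 0.12 SE, limma adjusted p = 0.027). Gap43 had a difference of -0.37 ± 0.18 (SE), and 11 further matched markers, among them Tubb3, Elavl3, Elavl4 and Prph, lay below the filter level. Differences of these were of both signs, from -1.41 for Resp18 to 2.004 for Chgb, with Tubb3 at 0.94 and Nefl at 0.78, and the tested Syp had one of 0.06 ± 0.23 (SE). Chgb was higher without overlap. The summed linear signal of the list was 432 to 485 on the Cre-labelled arrays and 558 to 595 on the control-labelled arrays. All 5 tested Schwann and glial markers had a negative difference and none passed (Mbp -0.41 ± 0.14 SE, Erbb3 -0.32 ± 0.12 SE), with a summed signal of 734 to 891 against 991 to 1139 on Cre-labelled and control-labelled arrays. Below the filter level Foxd3 had a difference of 1.18 without overlap, Cdh19 one of 1.27 and S100b one of -0.61. Stmn2 was the brightest gene of the first list and Erbb3 of the second, so they weigh most in the sums. The part of nerve and glia in the protocadherin values was not tested. All 12 endothelial markers were tested, 11 had a negative difference and none passed (Ramp2 -0.59 ± 0.14, Icam2 -0.55 ± 0.14 SE), with a median of -0.38. Their summed signal was 8706 to 11003 on the Cre-labelled arrays and 12157 to 14009 on the control-labelled arrays. The brightest Pcdh12 probe set had a difference of -0.04.

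Markers of tissue near the lung also differed between arrays. All 13 cardiac muscle markers had a negative difference and 1 passed, Myh7 (-1.03 ± 0.21 SE, limma adjusted p = 0.031), followed by Myl3 (-1.32 ± 0.32 SE), and their summed signal ran from 2129 to 5250 on the Cre-labelled arrays and from 3870 to 13284 on the control-labelled arrays. With the mean of this list as a covariate 12 of the 14 beta differences stayed positive, with a median of 0.44. This covariate follows the labels in part, and with it 6 probe sets over the array passed in place of 963. Single beta members moved both ways, Pcdhb3 from 0.47 to 0.79 and 1 Pcdhb21 probe set from 0.03 to -0.40. All 4 tested skeletal muscle markers were negative and none passed (Ckm -1.6 ± 0.52, Mylpf -1.44 ± 0.75 SE). Control-labelled replicate 1 read highest for each of the 4, with Mylpf at 9.51, against 6.41 and 5.94 on the other control-labelled arrays. The summed signal of the list was 257 to 321 on the Cre-labelled arrays and 308 to 3515 on the control-labelled arrays. Of 6 mesothelial markers Msln (-1.55 ± 0.17 SE, adjusted p = 0.0049) and Krt19 (-0.63 ± 0.14 SE, adjusted p = 0.039) fell and 4 did not pass. This list had 5 negative differences and 1 positive one, Wt1 (0.47 ± 0.30 SE), with a median of -0.61. Of 9 lung epithelium markers Aqp5 (-1.49 ± 0.23 SE) and Sftpb (-1.27 ± 0.20 SE) fell and 7 did not pass. There were 8 negative differences and 1 positive one, Epcam (0.32 ± 0.12 SE), with a median of -0.68, and Sftpc had one of -0.07 ± 0.30 (SE). Of 12 lung mesenchyme markers Wnt2 rose (0.65 ± 0.09 SE), with 8 positive and 4 negative differences and a median of 0.05. Tbx5 had a difference of 0.44 ± 0.18, Tcf21 one of -0.32 ± 0.14 and Pdgfra one of -0.33 ± 0.14 (SE), and none of these passed. None of 8 smooth muscle markers passed, 5 positive and 3 negative with a median of 0.12 (Cnn1 0.74 ± 0.24, Actg2 0.38 ± 0.13, Des -0.31 ± 0.18 SE). The part of these cells in the protocadherin values was not tested.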

How the data were processed

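Per the labels' protocols, biotinylated cRNA made from the total RNA of 6 fetal lungs was measured on Affymetrix arrays. MAS5 and affy are the tools in the submitters' processing notes. The deposited values are log2 signals, and the powers of 2 share a mean after trimming 2% at each end. They were used as deposited, with no offset. Of 45101 probe sets 64 controls were left out. Symbols came from the platform annotation, where 34945 probe sets have 1 symbol, 932 several and 9160 none, and all 49 member symbols matched a RefSeq gene table (GRCm38.p6), used for names and gene order.

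The 27022 probe sets whose mean reached the 40th percentile entered one limma fit (version 3.58.1, R 4.3.3). The variance was moderated with a trend on intensity, without covariates, with 4 residual and 5.32 prior degrees of freedom, and tests were two-sided. The fit was first tested on simulated data. Replicates are separate animals per the labels, and their number limits the precision. Arrays of the same number had deviations that correlated at -0.01, 0.20 and 0.14, so the numbers were not taken as pairs. Alternatives were other scalings, offsets, filters, variance models, array weights, a replicate block, a cardiac muscle covariate and leaving out each array.

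The members and the 18 gene lists (202 of 215 entries matched) were chosen with earlier results of these data known. Each listed gene was read from its probe set with the highest mean. Named are all members, list genes past the threshold, and the 2 per list with the smallest unadjusted p. Further list genes are named as lung markers, or to show low signal or differences of the other sign. Promoters are RefSeq windows. Plots used matplotlib 3.10.9 (Python 3.11.15).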

Additional observations from a re-analysis of the deposited data

How the results depend on the processing

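No protocadherin probe set passed the threshold in any of 17 alternative fits. Of the 32 tested members 18 kept the sign of their difference in every alternative that tested them. That was 16 or 17 of these fits, since the filter at the 60th percentile left some out. Not all of these fits could change a sign. The other filters, the fit without an intensity trend and the replicate block leave each difference as it was. The offsets cannot reverse groups that do not overlap. At an adjusted p of 0.10 there were 3 higher protocadherin probe sets and 2120 called probe sets on the array. The count over the array was 963, and it was 171 without an intensity trend, 6 with the cardiac muscle mean as a covariate and 314 to 495 without 1 array. With the replicate block, in which same-numbered arrays are treated as pairs, 1309 probe sets and 0 protocadherins passed, and the lowest adjusted p of a member was 0.054, for Pcdh9. The beta median of 0.47 was 0.30 with an offset of 16, 0.15 with an offset of 64, 0.35 with a filter at the 60th percentile and 0.43 to 0.57 without 1 array. Of the 14 beta differences 12 or 13 were positive when 1 array was left out, and 12 with the cardiac muscle covariate. The non-clustered median of 0.10 was -0.10 with the cardiac muscle mean as a covariate, -0.069 with 1 probe set per gene and -0.025 to 0.17 without 1 array. The alpha median was -0.18 to 0.01 and the gamma value 0.20 to 0.48 without 1 array. The cause of these shifts was not tested. Members near or below the filter level are limited by noise, and 36 of 68 could not be tested at this signal.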
